A study of Homo sapiens with 6 samples.

Results

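The genes described here are 3 actins and 6 genes whose products bind actin monomers, 9 members among 32357 genes in the count table. They were taken by symbol: the actins ACTG1, ACTB and ACTA2, the profilins PFN1 and PFN2, the cofilins CFL1 and CFL2, and the beta-thymosins TMSB4X and TMSB10. ACTG1 was chosen by its level, lower in all 4 knockdown libraries than in the control of the same line, so its values against control are given as a description, without a test. The other 8 entered by name.

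RNA-seq was done on 6 libraries from A-498 and 786-O, human clear cell renal cell carcinoma lines, with 3 libraries per line. In each line 1 library carried ZNF395 hairpin 3, 1 carried ZNF395 hairpin 1 and 1 carried a non-targeting hairpin as control. ZNF395 encodes a zinc finger protein. All 6 cultures, controls included, had received commercial MISSION hairpin constructs in retroviral particles, made in the human embryonic kidney line HEK293T, and had been selected with puromycin for 3 days in RPMI-1640 with fetal bovine serum. Each combination of line and hairpin was 1 library, so the lines stand in for replicates, and between the lines the constructs do. The p-values measure only the spread between these 6 libraries.

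Library totals ran from 77534125 to 99147218 counts. ZNF395 was at 14.3 CPM (counts scaled to library size, after TMM scaling) with hairpin 3, 14.5 with hairpin 1 and 67.9 in the control of A-498, and at 13.5, 24.7 and 96.3 CPM in the same order in 786-O. Of 11 clear cell renal carcinoma markers, 10 were above 1 CPM in every library. The exception was CA9, at or near 0 in 786-O and at 0.399 to 1.675 CPM in A-498. Summed smooth muscle markers were at 52.9 to 85.3 CPM in knockdown libraries and 69.5 to 89 CPM in controls, summed fibroblast markers at 6.82 to 41.4 and 9.41 to 33.1 CPM, summed endothelial markers at 0.243 to 2.35 and 0.379 to 1.71 CPM, and summed immune markers at 0.511 to 3.63 and 0.782 to 2.2 CPM. Of the last 2 lists, 5 of 6 markers each were in the table. Of the smooth muscle sum, SMTN, a gene also found outside smooth muscle, made up 45.0 to 84.5 CPM. The part of these markers in the results below was not tested.

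Actin exists as free monomers and as filaments, and the monomer pool is kept by a small set of abundant proteins. Beta-thymosins hold monomers in reserve, profilins load them with ATP and pass them to growing filament ends, and cofilins sever older filaments and release monomers. Free monomers also bind MRTF coactivators, which keeps these from switching on the transcription factor SRF. SRF binds a motif called the CArG box and is known for driving actin and other cytoskeletal genes.

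ACTG1 encodes gamma-actin and ACTB encodes beta-actin, the cytoplasmic actins of non-muscle cells. ACTG1 lies at chr17:81509971-81523847 and ACTB at chr7:5527147-5563784, both on the minus strand (GRCh38, GENCODE 29). Their coding sequences are 1128 bases each and 91.2% identical, with 99 differences and a longest identical run of 59 bases. The first 48 coding bases are shown because they hold the start of both proteins, where these isoforms are known to differ, with capitals at the 7 bases that are not shared.
ACTG1: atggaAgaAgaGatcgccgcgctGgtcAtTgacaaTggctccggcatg
ACTB: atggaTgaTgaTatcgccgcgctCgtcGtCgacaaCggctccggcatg
Over whole transcripts, 3.41% of the 31-base words of ACTG1 also occurred in ACTB, and 4.02% of those of ACTB in ACTG1. The treatment of reads with several matches is not stated in the sources used.

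Promoter windows of 250 bases before to 50 after the start (RefSeq, GRCh38.p14) were found for 7 of the 9 members, all but ACTB and PFN2. An exact match to the CArG box consensus, searched on both strands, was in the windows of 1 of these 7, ACTG1, and in 1.29% of the 35116 windows in the table. With 1 mismatch allowed, a setting chosen after seeing the data, 3 of the 7 held one (ACTG1, ACTA2 and CFL2), and so did 18.9% of all windows. ACTA2 and CFL2 had more than 1 window each, and a match in any window counted for the member. The percentages are per window, so the member counts are not on the same scale. The stretch that holds the exact match, chr17:81512859-81512918 on the minus strand, is shown with the box in capitals.
ACTG1 promoter: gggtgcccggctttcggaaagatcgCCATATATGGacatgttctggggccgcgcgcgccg
The box begins 94 bases before the annotated start. A match to these letters is a description of the sequence and does not show a bound site.

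ACTG1 was lower in every knockdown library than in the control of its line. In A-498 it was at 588 CPM with hairpin 3 and 593 CPM with hairpin 1, against 1711 CPM in the control, which leaves 34.4% and 34.7% of the control level. In 786-O it was at 2644 CPM with hairpin 3 and 2026 CPM with hairpin 1, against 4329 CPM in the control, which leaves 61.1% and 46.8%. The log2 ratios were -1.54 and -1.53 in A-498 and -0.71 and -1.10 in 786-O. These ratios are what chose ACTG1. Being lower in all 4 ratios held for 14.4% of 19578 genes. The member that missed the rule by least was TMSB10, whose highest ratio was 0.02 on the log2 scale, followed by CFL2 with 0.08, while the ratio of ACTG1 nearest to 0 was -0.71.

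The fitted log2 difference of ACTG1 was -1.22 (SE 0.193) for knockdown against control, -1.13 (SE 0.207) for hairpin 3 against control and -1.33 (SE 0.207) for hairpin 1 against control. The hairpin comparisons share the 2 controls. In the authors' deposited table, which sets control over knockdown, ACTG1 had a log2 fold change of 1.03 (SE 0.211). Because ACTG1 was chosen for being lower with knockdown, these differences and their SEs are a description and not a test. The lowest ACTG1 count was 47522, with a counting error of 0.459%, which does not include the spread between libraries. In bulk RNA, fewer cells of a kind and less RNA per cell cannot be told apart.

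**Figure D1:**
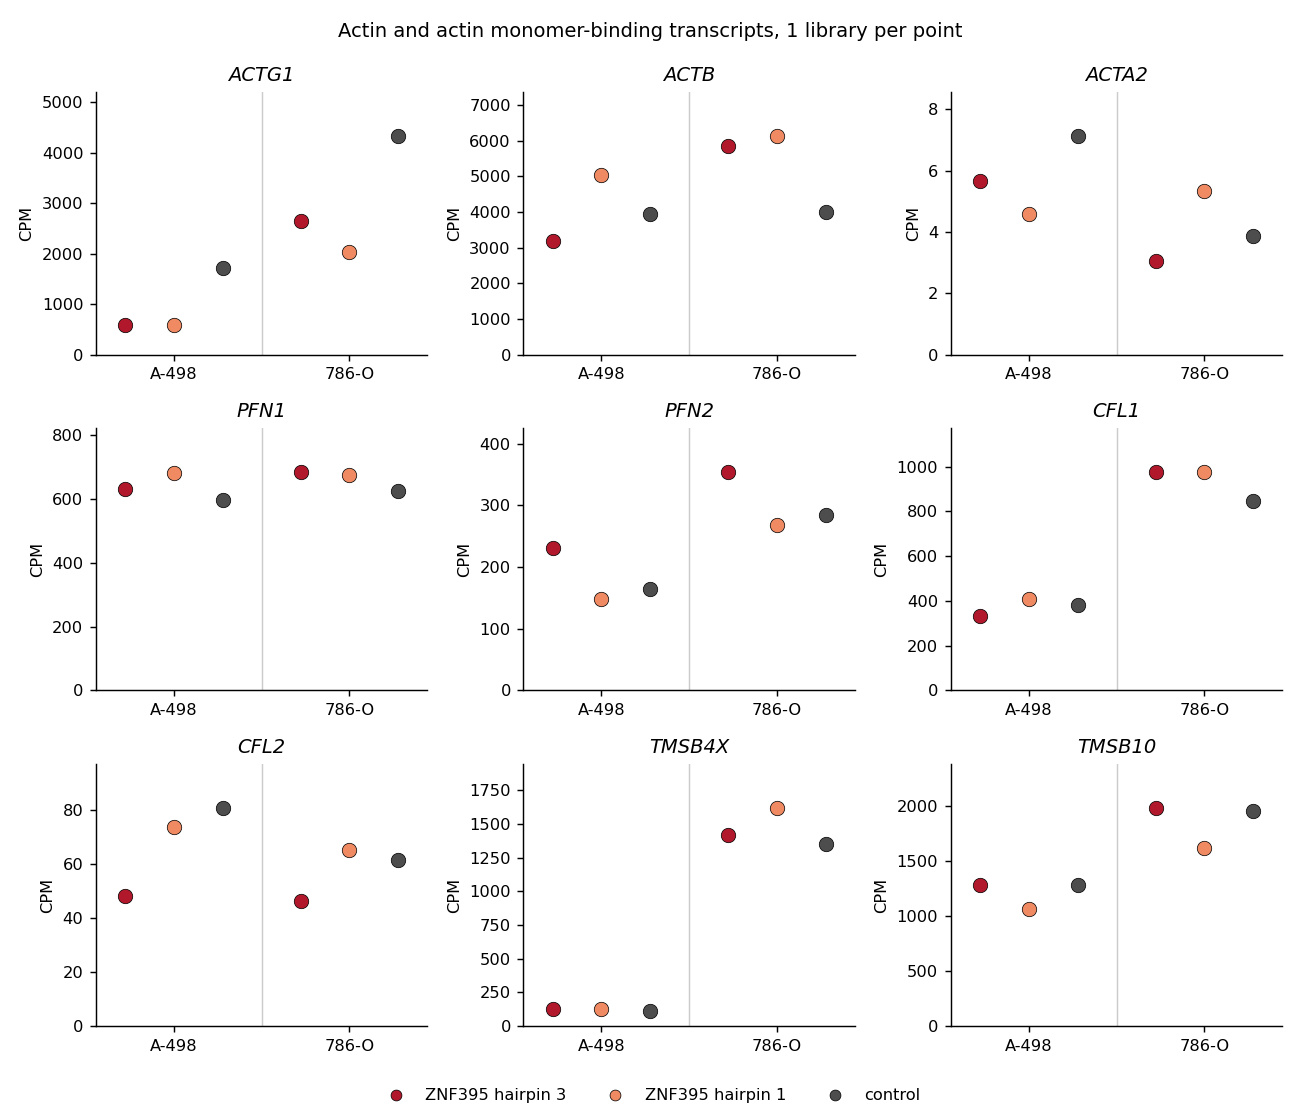
CPM of the 9 members, 1 panel per gene and 1 point per library, with hairpin 3, hairpin 1 and control from left to right within each line; all vertical axes start at 0. ACTG1 is lower in both knockdown libraries than in the control of each line, and TMSB4X sits at 116 to 130 CPM in A-498 and 1354 to 1621 CPM in 786-O.

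ACTB had another pattern. In A-498 it was at 3183 CPM with hairpin 3 and 5041 CPM with hairpin 1, against 3951 CPM in the control. In 786-O it was at 5849 CPM with hairpin 3 and 6137 CPM with hairpin 1, against 3994 CPM in the control. ACTB was thus above the control in 3 of 4 knockdown libraries, and A-498 with hairpin 3 was the exception at 80.6% of its control. The fitted log2 difference of knockdown against control was 0.31 (SE 0.229) and did not pass the test (adjusted p = 0.950, edgeR's quasi-likelihood test with Benjamini-Hochberg adjustment over 20144 genes).

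Summed per kilobase of exon, ACTB and ACTG1 reached 1845 CPM per kb with hairpin 3 and 2781 with hairpin 1, against 2702 in the control of A-498. In 786-O the sums were 4046 CPM per kb with hairpin 3 and 3932 with hairpin 1, against 3822 in the control. The sum was at 103 to 106% of the control in 3 knockdown libraries and at 68.3% in A-498 with hairpin 3. Counted as reads rather than per kilobase, it was at 98.1 to 102% of the control in those 3 libraries and at 66.6% in A-498 with hairpin 3. With library totals as the only scaling, a setting chosen after seeing the data, the read sums of those 3 became 96.2 to 102% and that of A-498 with hairpin 3 became 69.2%. Of these 3, the A-498 hairpin 1 and 786-O hairpin 3 libraries lay on opposite sides of their controls under the 2 scalings, so no direction is given for the sum.

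ACTG1 took a smaller share of the reads on these actins in every knockdown library. ACTG1 made up 15.6% of the reads on ACTB and ACTG1 with hairpin 3 (95% Wilson interval 15.5 to 15.7) and 10.5% with hairpin 1 (10.4 to 10.6), against 30.2% in the control of A-498 (30.1 to 30.3). In 786-O it made up 31.1% with hairpin 3 (31.01 to 31.24) and 24.8% with hairpin 1 (24.7 to 24.9), against 52.0% in the control (51.9 to 52.1). The intervals cover counting error only. Per kilobase, the share of ACTG1 was 13.4 and 8.95% with hairpins 3 and 1, against 26.6% in the control of A-498, and 27.4 and 21.6%, against 47.5%, in 786-O. Because ACTG1 enters this share, the share is not independent of the rule.

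**Figure D2:**
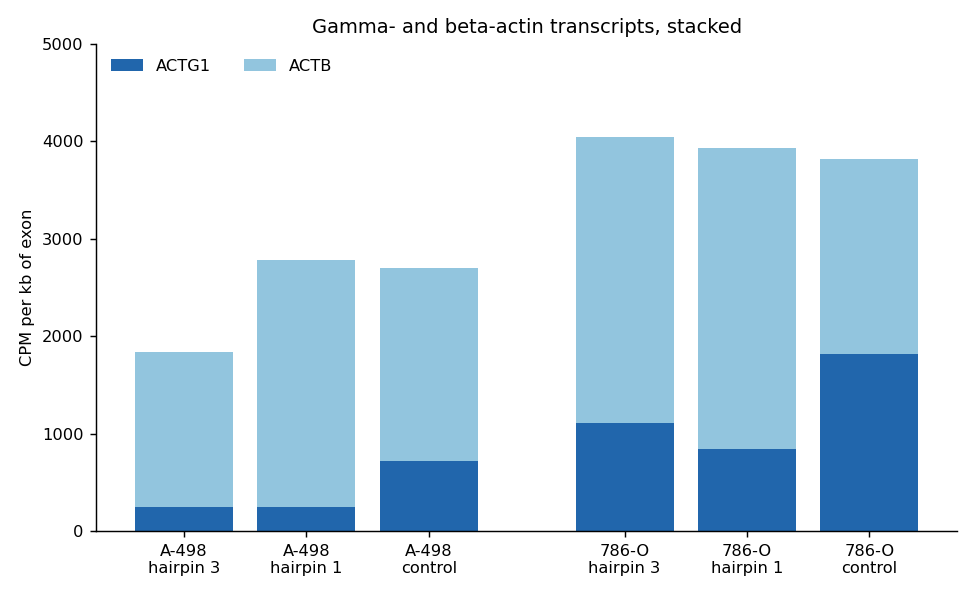
Stacked bars of ACTG1 (dark) and ACTB (light) in CPM per kb of exon, 1 bar per library. The ACTG1 part is smaller in all 4 knockdown libraries, while the whole bar lies at 103 to 106% of its control in 3 of them and at 68.3% in A-498 with hairpin 3.

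ACTA2, the smooth muscle alpha-actin, was the least abundant of the 9 per kilobase of exon in both lines. It was at 5.67 CPM with hairpin 3 and 4.58 with hairpin 1, against 7.13 in the control of A-498, and at 3.04 and 5.32, against 3.87, in 786-O. Its exons share 516 bases with the antisense gene ACTA2-AS1 and 380 with FAS on the other strand, and the sources used do not state whether counting was by strand, so its level is uncertain. Its log2 difference of knockdown against control was -0.19 (SE 0.300, adjusted p = 0.966, edgeR). Of the other actins, ACTBL2 was at 0.429 to 1.35 CPM, ACTA1 was at most at 0.204 CPM, and ACTC1 and ACTG2 were at most at 0.102 CPM.

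The profilins had different patterns across the libraries. PFN1, the general isoform, was at 631 CPM with hairpin 3 and 680 with hairpin 1, against 596 in the control of A-498, and at 685 and 676, against 626, in 786-O. It was above the control in all 4 knockdown libraries by 0.08 to 0.19 on the log2 scale, a pattern shared by 13.2% of genes, and its difference did not pass the test (0.13, SE 0.130, adjusted p = 0.958, edgeR). PFN2, the isoform best known from neurons, was at 231 CPM with hairpin 3 and 148 with hairpin 1, against 164 in the control of A-498. In 786-O it was at 355 CPM with hairpin 3 and 269 with hairpin 1, against 284 in the control. In each line the hairpin 3 library was the highest and the hairpin 1 library the lowest. The exons of PFN1 share 111 bases with ENO3 on the other strand, and those of PFN2 share 28 with ANKUB1 on the same strand.

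Of the cofilins, CFL1 was the more abundant per length and CFL2 the one set apart with hairpin 3. CFL1, the non-muscle cofilin, was at 332 CPM with hairpin 3 and 407 with hairpin 1, against 380 in the control of A-498, and at 974 and 977, against 847, in 786-O. Its exons share 759 bases with MUS81 and 357 with SNX32 on the other strand, so its level is uncertain as well. CFL2, known as the muscle cofilin, was at 48.3 CPM with hairpin 3 and 73.7 with hairpin 1, against 81.0 in the control of A-498. In 786-O it was at 46.2 CPM with hairpin 3 and 65.3 with hairpin 1, against 61.6 in the control. Both hairpin 3 libraries lay below all 4 others.

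The beta-thymosins, which sequester monomers, kept within -0.27 and 0.26 of control on the log2 scale. TMSB4X was at 130 CPM with hairpin 3 and 124 with hairpin 1, against 116 in the control of A-498, and at 1418 and 1621, against 1354, in 786-O. TMSB10 was at 1278 CPM with hairpin 3 and 1064 with hairpin 1, against 1278 in the control of A-498, and at 1981 and 1612, against 1950, in 786-O. TMSB10 was thus lowest with hairpin 1 in both lines, and TMSB4X was above the control in all 4 knockdown libraries by 0.07 to 0.26 on the log2 scale. Neither passed the test for knockdown against control (TMSB4X 0.15, SE 0.136, adjusted p = 0.951 and TMSB10 -0.12, SE 0.156, adjusted p = 0.965, edgeR).

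Of the 8 members other than ACTG1, 0 were called for knockdown against control, with 0 at an unadjusted p under 0.05 and 0 called by DESeq2. The background was 0% of 20144 genes by edgeR, with 1013 at an unadjusted p under 0.05 and 92 called by DESeq2. ZNF395 itself, left at 14.0 to 25.6% of its control, was thus not called by edgeR either. A member not called here was therefore not shown to be unchanged. With the hairpin number as a block, 26 genes were called, none of them a member. The adjusted p was at least 0.950 for each of the 8.

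**Figure D3:**
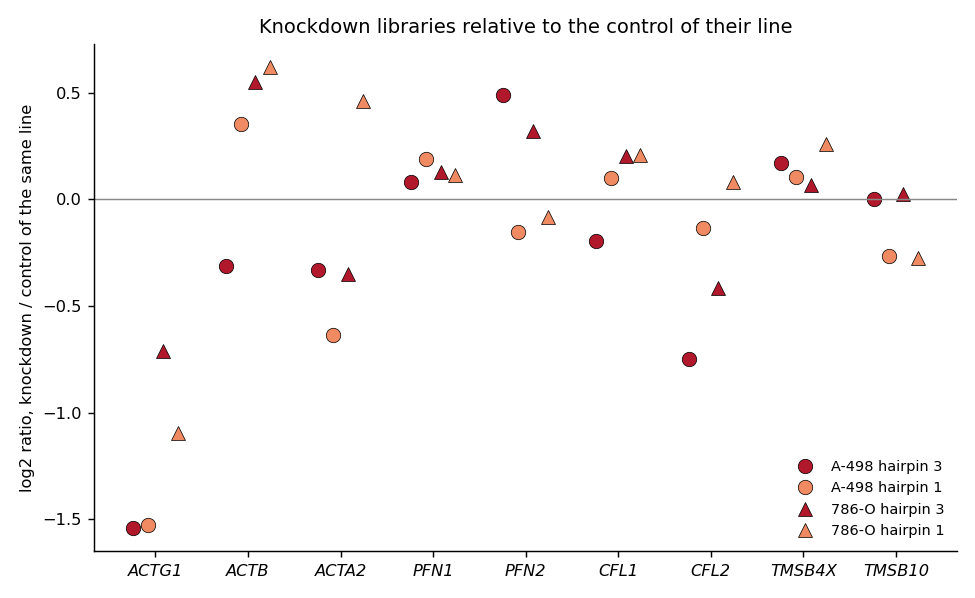
Log2 ratio of each knockdown library to the control of its line for the 9 members, 4 points per gene (colour for hairpin, shape for line). The 4 ACTG1 points lie from -1.54 to -0.71, and the points of PFN2, CFL2 and TMSB10 separate by hairpin in both lines.

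With hairpin 3 alone, 1 of the 8 was called. CFL2 fell by 0.58 on the log2 scale (SE 0.130, adjusted p = 0.0469, edgeR), lower in 2 of 2 lines, where 6.71% of all genes were called, 2.55% higher and 4.16% lower. CFL2 was no longer called when the A-498 control (adjusted p = 0.404), the 786-O control (0.168), the A-498 hairpin 3 library (0.0792) or the 786-O hairpin 1 library (0.0679) was left out. The smooth muscle marker DES (desmin) also fell with hairpin 3 (log2 -2.33, SE 0.330, adjusted p = 0.0168, edgeR), at 0.776 CPM with hairpin 3 and 3.56 with hairpin 1, against 3.65 in the control of A-498, and at 0.0133 and 0.102, against 0.127, in 786-O. It was lower with hairpin 3 than with hairpin 1 as well (log2 -2.23, adjusted p = 0.0149, edgeR), and its part in the CFL2 values and in the gene lists was not tested. DES was near 0 in 786-O. Of 7 smooth muscle markers tested with hairpin 3 against control, DES was the 1 called. The other 6 were not called, and 2 of the 7 had log2 values above 0. PFN2 had a log2 difference of 0.40 (SE 0.125), which edgeR did not call (adjusted p = 0.102) and DESeq2 did (adjusted p = 0.0486). ACTB had a difference of 0.13 (SE 0.217, adjusted p = 0.761, edgeR).

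With hairpin 1, 0 of the 8 were called, 0 had an unadjusted p under 0.05 and DESeq2 called 0, where edgeR called 0.149% of all genes, 0.0397% higher and 0.109% lower. Of all genes tested, 2106 had an unadjusted p under 0.05 by edgeR, and DESeq2 called 466. ACTB had the largest difference of the 8 at 0.47 (SE 0.216, adjusted p = 0.511, edgeR), and was above the control in both lines. TMSB10 followed at -0.27 (SE 0.126, adjusted p = 0.528, edgeR).

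The hairpins were then set against each other, a comparison the choice of members did not use. PFN2 was higher with hairpin 3 than with hairpin 1 by 0.52 on the log2 scale (SE 0.126, adjusted p = 0.0488, edgeR), and CFL2 was lower by -0.55 (SE 0.130, adjusted p = 0.0455, edgeR), each in 2 of 2 lines. These are 2 of 9 members, beside 9.48% of all genes, 4.09% higher and 5.4% lower. Both calls were lost when any library other than 786-O with hairpin 3 was left out, with adjusted p of 0.103 to 0.268 for PFN2 and 0.0714 to 0.169 for CFL2. The difference of ACTG1 between the hairpins was 0.20 (SE 0.204, adjusted p = 0.568, edgeR), and -0.10 without the 786-O hairpin 3 library. That of ACTB was -0.35 (SE 0.216, adjusted p = 0.344, edgeR), and -0.71 without the 786-O hairpin 3 library, where it was called (adjusted p = 0.0186, edgeR).

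**Figure D4:**
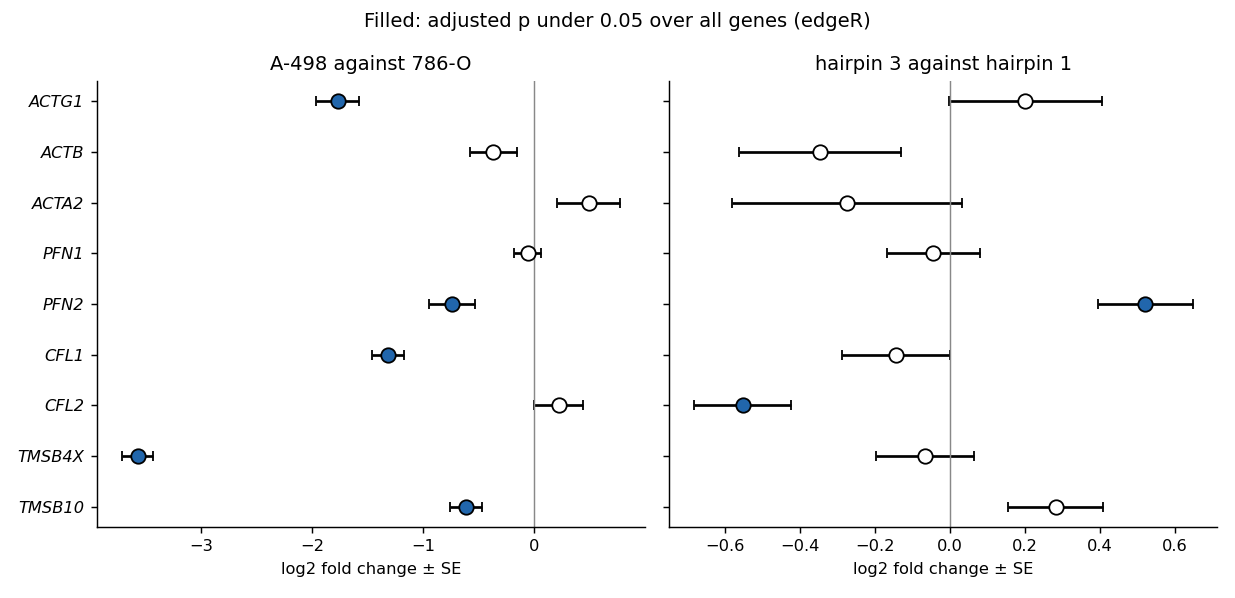
Log2 fold change with its standard error for the 9 members, A-498 against 786-O (left) and hairpin 3 against hairpin 1 (right), each from a fit over 6 libraries; filled points have an adjusted p under 0.05. On the left 5 members are filled and all 5 are lower in A-498, and on the right PFN2 (0.52) and CFL2 (-0.55) are filled.

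More members were called between the lines, where the 3 constructs of a line stand in for replicates. Each SD below therefore spans the control and the 2 hairpins. For ACTG1 it includes the difference from control that chose the gene. TMSB4X, the beta-thymosin with the largest difference of the 9, averaged 123 ± 7.19 CPM in A-498 and 1464 ± 140 CPM in 786-O (SD, n = 3 each), and was lower in A-498 by 11.9-fold (log2 -3.57, SE 0.141, adjusted p = 2.98e-05, edgeR). CFL1 averaged 373 ± 38.0 CPM in A-498 and 933 ± 74.0 CPM in 786-O (log2 -1.32, SE 0.146, adjusted p = 6.98e-04, edgeR). ACTG1 averaged 964 ± 647 CPM in A-498 and 2999 ± 1192 CPM in 786-O (log2 -1.77, SE 0.193, adjusted p = 6.72e-04, edgeR), and its highest A-498 library, the control, lay below its lowest 786-O library.

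TMSB10 averaged 1207 ± 124 CPM in A-498 and 1848 ± 205 CPM in 786-O (log2 -0.61, SE 0.148, adjusted p = 0.0146, edgeR). PFN2 averaged 181 ± 43.7 CPM in A-498 and 303 ± 45.8 CPM in 786-O (log2 -0.74, SE 0.209, adjusted p = 0.0254, edgeR). These 5 of 9 members were called lower in A-498, where 21.4% of all genes were called lower and 47.2% were called in either direction. The same 5 had no overlap between the lines, which held for 59.1% of all genes. The calls of ACTG1, CFL1 and TMSB4X held with each library left out in turn. The TMSB10 call was lost without the 786-O control (adjusted p = 0.0863), the A-498 control (0.0818) or the 786-O hairpin 3 library (0.0522), and the PFN2 call without the 786-O control (0.125), the A-498 control (0.120), the 786-O hairpin 3 library (0.0862) or the A-498 hairpin 1 library (0.0514).

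ACTB (log2 -0.37, SE 0.213, adjusted p = 0.197), ACTA2 (0.49, SE 0.286, adjusted p = 0.200), PFN1 (-0.06, SE 0.121, adjusted p = 0.715) and CFL2 (0.22, SE 0.220, adjusted p = 0.447) did not pass edgeR's test between the lines. The response to knockdown was not called different between the lines for any of the 9 (0 of 9 by edgeR, 0 at an unadjusted p under 0.05 and 0 by DESeq2, beside 0% of all genes by edgeR, with 159 at an unadjusted p under 0.05, and 0 by DESeq2). For ACTG1 the difference in response was -0.64 on the log2 scale (SE 0.379, adjusted p = 1, edgeR), more negative in A-498.

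Levels were compared between members per kilobase of exon. The length was that of the merged exons of all protein-coding transcripts in GENCODE 29's basic set, from 496 bases for TMSB10 to 7046 for CFL2. A member's main transcript can be shorter than this, so the order depends on the choice of length, and no other choice was tested. In A-498, over its 3 libraries and in order of the mean, TMSB10 led at 2145 to 2577 CPM per kb, followed by ACTB at 1599 to 2532, ACTG1 at 247 to 718, PFN1 at 307 to 351 and CFL1 at 137 to 168. TMSB4X at 67.8 to 76.2, PFN2 at 44.1 to 68.8, CFL2 at 6.85 to 11.5 and ACTA2 at 3.40 to 5.29 CPM per kb came after. TMSB10 and ACTB, ACTG1 and PFN1, and TMSB4X and PFN2 overlapped as neighbours.

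In 786-O the order by mean level was TMSB10 at 3249 to 3994 CPM per kb, ACTB at 2006 to 3083, ACTG1 at 850 to 1816, TMSB4X at 794 to 951, CFL1 at 349 to 402 and PFN1 at 323 to 353. PFN2 at 80.1 to 106, CFL2 at 6.56 to 9.26 and ACTA2 at 2.25 to 3.95 CPM per kb were lowest. ACTG1 and TMSB4X, and CFL1 and PFN1, overlapped as neighbours. TMSB4X was thus below PFN1 and CFL1 in A-498 and above both in 786-O.

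Processed copies could draw reads from these genes. The table holds 29 such copies of 5 members, and 1 averaged at least 1 CPM, TMSB4XP8, at 1.16 CPM with hairpin 3 and 1.15 with hairpin 1, against 0.903 in the control of A-498, and at 14.8 and 13.5, against 10.2, in 786-O. The counts on all copies came to 0.0218% of the parent's counts for ACTG1, 0.00759% for ACTB, 0.0919% for PFN1, 0.118% for CFL1 and 0.893% for TMSB4X. Reads of the parent placed on a copy, or the reverse, would not be visible in these numbers.

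The genes whose 4 log2 ratios to control lay nearest to those of ACTG1, among 9695 genes averaging 10 CPM or more, were MRAS (root mean square difference 0.262), PPAP2B (0.283), EI24 (0.321), HHIPL2 (0.385) and MFAP3 (0.445). The search used the ratios that chose ACTG1, so lower levels of these genes with knockdown follow from it. MRAS, a Ras-family GTPase, was at 11.7 CPM with hairpin 3 and 11.1 with hairpin 1, against 26.7 in the control of A-498, and at 51.3 and 52.5, against 99.4, in 786-O. ACTA2 averaged under 10 CPM and was not ranked. Of the other members, the nearest was CFL2, at a distance of 1.01 and rank 943, and ACTB was at 1.55 and rank 8397.

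Around these members, 105 further genes of actin assembly in 9 lists were looked at, of which 95 were tested. For hairpin 3 against control, 6 were called, 1 higher and 5 lower, or 6.32% beside the 6.71% of all genes. DESeq2 called 15 of the 95, beside 2589 of the 20144 genes tested. For hairpin 1 against control edgeR called 0, with 17 at an unadjusted p under 0.05, beside 30 and 2106 of all genes. DESeq2 called 3 there, beside 466. For knockdown against control edgeR and DESeq2 called 0, beside 0 and 92 of all genes. Each had 5 at an unadjusted p under 0.05, beside 1013 by edgeR and 1073 by DESeq2. Of 6 actin-derived POTE genes 1 was in the table and 0 were tested. Among 13 monomer turnover factors, 2 fell with hairpin 3, with a list median of -0.211 beside -0.00955 over all genes. TWF1, a twinfilin that binds monomers and caps filaments, was at 81.6 CPM with hairpin 3 and 161 with hairpin 1, against 145 in the control of A-498, and at 157 and 289, against 238, in 786-O (log2 -0.72, SE 0.124, adjusted p = 0.0254 for hairpin 3 against control, edgeR). CAP2, a cyclase-associated protein that recycles monomers, was at 31.5 CPM with hairpin 3 and 60.4 with hairpin 1, against 59.2 in the control of A-498, and at 34.9 and 56.2, against 49.8, in 786-O (-0.71, SE 0.138, adjusted p = 0.0328, edgeR).

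Among 13 kinases and phosphatases that control cofilin, LIMK1, which inactivates cofilin by phosphorylation, rose with hairpin 3 by 0.57 on the log2 scale (SE 0.129, adjusted p = 0.0486, edgeR). SSH3, a slingshot phosphatase, fell by 0.79 (SE 0.146, adjusted p = 0.0294, edgeR), and the list median was -0.0369. In A-498, SSH3 was at 23.6 CPM with hairpin 3 and 24.4 with hairpin 1, against 37.4 in the control. In 786-O it was at 27.4 and 37.9, against 52.3. Its log2 difference with hairpin 1 was -0.54 (SE 0.145, adjusted p = 0.276, edgeR), so it was lower with both hairpins. Among 15 Arp2/3 complex genes and activators only WASF3, which activates the complex, was called with hairpin 3 (-2.21, SE 0.364, adjusted p = 0.0231, edgeR), at 0.358 to 3.96 CPM over all 6 libraries, with a list median of 0.0662. Among 12 capping and severing proteins CAPZA1, a subunit of the filament capping protein, fell by 1.02 (SE 0.150, adjusted p = 0.0175, edgeR), with a list median of -0.0833. None of 13 formins (median 0.0283), 9 cross-linkers (0.0968), 18 SRF, MRTF and target genes (-0.0412) or 2 other actins passed with hairpin 3. SRF itself had a log2 difference of 0.54 (SE 0.146, adjusted p = 0.0757, edgeR) and TPM3 one of -0.52 (SE 0.140, adjusted p = 0.0748, edgeR).

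The 6 hairpin 3 calls depended on the controls. Without the A-498 control 0 of the 6 were called, and without the 786-O control 1 was, with all 6 signs kept. Against control, hairpin 1 gave list medians of 0.0184 for capping and severing proteins, 0.0337 for the Arp2/3 list, 0.0631 for cofilin kinases and phosphatases, 0.0746 for turnover factors, 0.193 for formins, 0.231 for the SRF and MRTF list, 0.235 for the 2 other actins and 0.278 for cross-linkers, beside -0.00406 over all genes. In the SRF and MRTF list, 7 of 18 values were above 0 with hairpin 3 and 14 of 18 with hairpin 1, beside 49.1% and 49.4% of all genes. With hairpin 1, MYH9 (0.50, SE 0.137, adjusted p = 0.276) and VCL (0.47, SE 0.131, adjusted p = 0.281) had the smallest p of that list by edgeR, which called 0. Between the hairpins, 13 of the 95 were called, 4 higher and 9 lower with hairpin 3, or 13.7% beside 9.48% of all genes. DESeq2 called 21 of the 95, beside 2990 of all genes. Among the 13 were TWF1 (-0.93), CAP2 (-0.81), ROCK2 (-0.84), CAPZA1 (-1.04), WASF3 (-1.78) and TPM3 (-0.69), and higher TESK1 (0.74), LIMK1 (0.58), WASF2 (0.62) and FLII (0.89). In A-498, FLII was at 333 CPM with hairpin 3 and 169 with hairpin 1, against 274 in the control. In 786-O it was at 213 and 122, against 186. Set against control, hairpin 1 gave log2 -0.65 for FLII (adjusted p = 0.136, edgeR) and -0.40 for WASF2 (adjusted p = 0.307, edgeR). Without the 786-O hairpin 1 library 0 of the 13 were called, and without the A-498 hairpin 1 library 3 were.

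**Figure D5:**
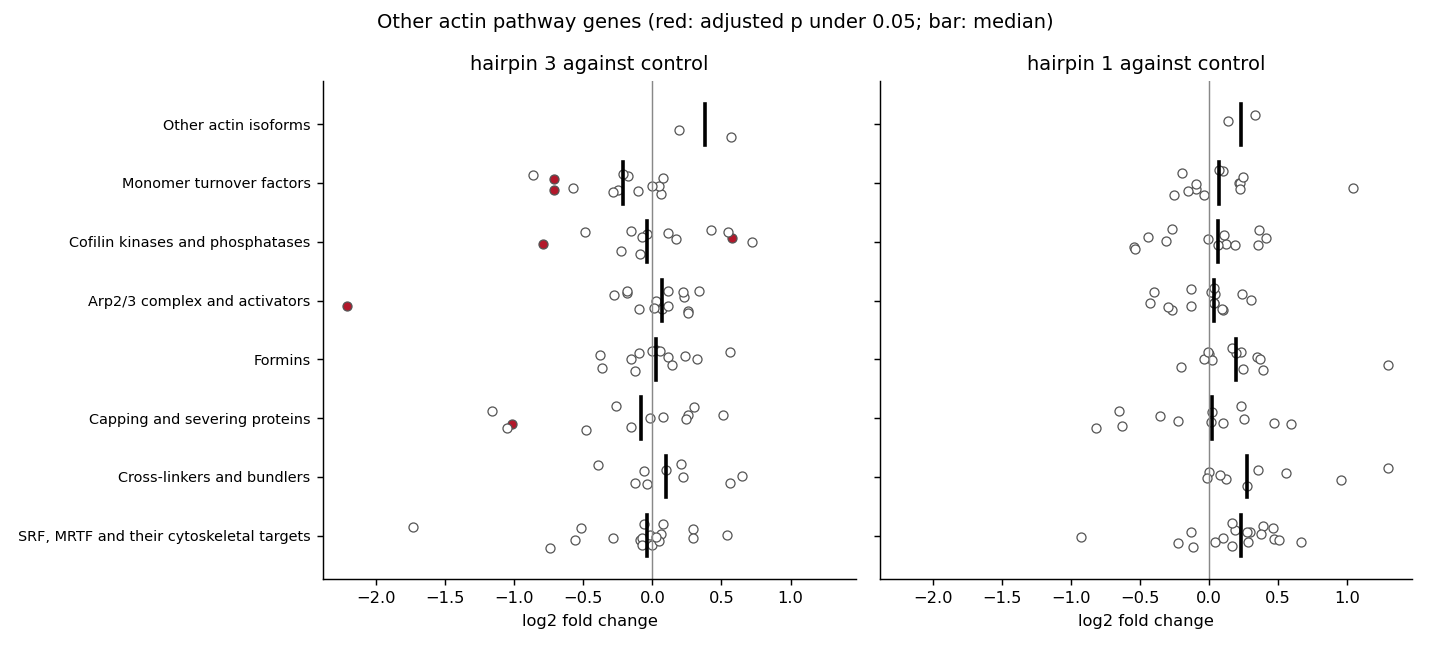
Log2 fold changes of the tested genes in 8 lists of other actin genes, 1 point per gene, for hairpin 3 (left) and hairpin 1 (right) against control, with red points at an adjusted p under 0.05 and a bar at each list's median. On the left 6 points are red (TWF1, CAP2, LIMK1, SSH3, WASF3 and CAPZA1), and on the right 0 are.

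Between the lines, 47 of the 95 were called, 14 higher and 33 lower in A-498, or 49.5% beside 47.2% of all genes. Of the 15 Arp2/3 genes and activators 8 were called and all 8 were lower in A-498, beside 21.4% of all genes called lower, with WASF1 (-2.56), WASF2 (-1.40), ARPC1B (-0.82) and ARPC2 (-0.65) having the smallest p. Leaving out either control lost the same 5 of these 8 calls (ACTR2, ARPC2, ARPC4, ARPC5 and ARPC5L), and leaving out any 1 knockdown library lost 3. Among the bundlers, LCP1 (L-plastin) was lower by -5.80 on the log2 scale (SE 0.463, adjusted p = 2e-04, edgeR). Among capping and severing proteins SCIN (5.48) and TMOD1 (5.86) were higher in A-498, and CAPZB (-1.40) and SVIL (-1.15) were lower. The log2 values of LCP1, SCIN and TMOD1 rest on levels near 0 in the lower line. LCP1 was at 0.245 to 0.674 CPM in A-498. In 786-O, SCIN was at 0.0506 to 0.12 CPM and TMOD1 at 0.04 to 0.179 CPM. With either control left out, 27 of the 47 calls held.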

How the data were processed

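The deposited table holds whole-number counts per gene symbol, deposited by the authors without normalization. The submitters' processing notes name the tools STAR and DESeq2 and the builds hg19 and hs37d5, giving neither version nor role. The counting tool, annotation and strand setting are not stated in the sources used. Other columns deposited by the authors hold, per the file headers, DESeq2's mean signal, log2 fold change and its error, test score, p-value and adjusted p-value. Coordinates and sequences here come from GRCh38, not from the build of the files.

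The tests were edgeR's quasi-likelihood F tests (edgeR 4.0.16, R 4.3.3; TMM scaling, 20144 of 32357 genes past filterByExpr over knockdown status, all 9 members among them), with Benjamini-Hochberg adjustment over all tested genes and calls at an adjusted p under 0.05. Knockdown against control, the lines and their interaction used models with line and knockdown status. Hairpin comparisons used line and construct. Standard errors came from the F statistic. DESeq2 1.42.0, RLE size factors, no filter on low counts, a hairpin-number block and leaving out each library were tried. The same hairpin number marks the same construct in both lines, and the differences between hairpins correlated between the lines (Pearson 0.611, Spearman 0.574, across 9696 genes, which are not independent replicates).

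All 9 members were named. In each list the genes named were those with the smallest p, up to 4 where any passed and up to 2 otherwise, and from these the text gives a selection. Members and lists were chosen with earlier results of these data known. No label gives a batch, so none could be examined. No number column of the table was left unlisted (0).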

Additional observations from a re-analysis of the deposited data

Results flagged for a closer look

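PFN2 and CFL2 are listed here because their responses to the hairpins differed by a test of the difference itself. PFN2 was higher with hairpin 3 than with hairpin 1 (log2 0.52, adjusted p = 0.0488, edgeR), and CFL2 was lower (log2 -0.55, adjusted p = 0.0455, edgeR), each in 2 of 2 lines. With RLE size factors the PFN2 value had an adjusted p of 0.05001, just past the threshold. No group held enough libraries to be examined for a library that stands apart.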

How the results depend on the processing

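Of 467 values for the members under the alternatives, ACTG1 against control left out, 416 kept their direction and their side of the threshold, 22 lost a call, 3 gained one and 26 changed sign, all 26 uncalled. For the listed genes the numbers were 760, 73, 24 and 5 of 862. The cause was not tested. DESeq2 called 2 members with hairpin 3 against control, and RLE size factors left 1 for hairpin 3 against hairpin 1. Leaving out each library gave 0 to 2 members called for hairpin 3 against control, 0 to 3 for hairpin 3 against hairpin 1 and 3 to 5 for A-498 against 786-O. The replicate block changed no member call.

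Of all genes, DESeq2 called 92 for knockdown against control, 466 for hairpin 1, 2589 for hairpin 3 and 2990 between the hairpins, against 0, 30, 1351 and 1910 by edgeR. Without the filter edgeR called 478, 2654 and 3117 for hairpin 1, hairpin 3 and between the hairpins. Leaving out 1 library gave 0 to 608 for hairpin 1, 121 to 2337 for hairpin 3, 249 to 3312 between hairpins and 5581 to 8587 between lines, against 9501. The interaction could not be fitted without either control. Where a control was left out, the lone remaining one was assumed to vary like the other libraries.

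The log2 values that changed sign had these ranges over the left-out libraries. For knockdown against control they were -0.026 to 0.18 for CFL1, -0.46 to 0.093 for ACTA2 and -0.010 to 0.30 for ACTBL2. For hairpin 3 against control they were -0.15 to 0.16 for CFL1 (-0.00049 without the filter), -0.22 to 0.47 for ACTB, -0.013 to 0.028 for TMSB10 and -0.41 to 0.66 for ACTBL2. For hairpin 1 against control they were -0.65 to 0.47 for ACTA2, -0.15 to 0.093 for CFL2 and -0.33 to 0.58 for ACTBL2. Between hairpins they were -0.53 to 0.55 for ACTBL2, -0.81 to 0.31 for ACTA2, -0.17 to 0.047 for TMSB4X, -0.10 to 0.48 for ACTG1, -0.090 to 0.0055 for PFN1 and -0.30 to 0.0087 for CFL1. For the line difference in the response they were -0.26 to 0.35 for PFN2, -0.60 to 0.050 for CFL2, -0.10 to 0.12 for TMSB4X, -0.12 to 0.17 for TMSB10 and -0.039 to 0.10 for PFN1.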
